A study of Mus musculus with 12 samples.

Results

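The 10 genes described here encode Wnt ligands: Wnt7a, Wnt7b, Wnt4, Wnt5a, Wnt5b, Wnt6, Wnt10a, Wnt10b, Wnt9a and Wnt11. They were chosen by gene symbol from the 55401 genes of the expression table, in which the mouse has 19 Wnt genes, and all 10 were found. RNA had been sequenced from 12 libraries labelled as orthotopic oral tumours, 3 per treatment. The tumours were grown in C57BL/6 mice from mouse oral cancer cells, which one label names MTC-Q1 and the library titles Q1-2 (in the study's methods a luciferase-carrying subline of MTC-Q1), and were treated from a tumour volume of 100 mm3 with 4 doses according to one label and 6 according to another. The control group received IgG (Ctrl-IgG). The other groups received an antibody that blocks CSF1R, through which CSF1 keeps macrophages alive (aCSF1R), interleukin-10 joined to an Fc part (IL-10-Fc), or BF10, in which human interleukin-10 is fused to the CSF1R antibody. The labels do not say whether the 3 libraries of a group came from separate mice, so the p-values measure only the spread between these libraries. Levels are given as FPKM, a fragment count scaled for the length of the transcript and the size of the library, so that levels of different genes can be set side by side.

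Wnt proteins are secreted, lipid-modified glycoproteins. Porcn attaches the lipid, Wls carries the ligand to the cell surface, and Notum removes the lipid again outside the cell. A ligand that meets a Frizzled receptor with Lrp5 or Lrp6 keeps beta-catenin from being degraded, and beta-catenin then acts with TCF and LEF factors in the nucleus. Wnt5a, Wnt5b and Wnt11 are known mainly for signalling without beta-catenin, through Ror2, Ryk and the planar polarity proteins. In stratified epithelia of skin and mouth, Wnt4, Wnt7b, Wnt10a and Wnt10b are among the ligands made by keratinocytes.

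The libraries were first compared with their labels. H2-Ea, an MHC class II gene that C57BL/6 mice do not transcribe, did not pass 0.27 FPKM in any Ctrl-IgG or aCSF1R library (6 in all), whereas the 6 IL-10-Fc and BF10 libraries held 553 to 1727 FPKM. Xist, the RNA of the inactive X chromosome, was at most 0.04 FPKM in the former and at least 17.1 FPKM in the latter, and the Y-linked gene Eif2s3y was at least 4.23 FPKM in the former and listed at 0 in 4 of the latter, with 0.05 and 3.29 FPKM in BF10 replicates 1 and 3. The summed level of 9 simple epithelium markers was 2.16 to 11.3 FPKM on the first side and 610 to 1583 FPKM on the second. The C57BL/6 label therefore does not match the 6 libraries labelled IL-10-Fc and BF10, and treatment with interleukin-10 cannot be told apart from the differences in H2-Ea, sex-linked genes and epithelial makeup in any comparison across these sides. The study also treated BALB/c mice with 4T1 mammary tumours, which were not analysed here, and 7 mammary luminal markers summed to 1.52 to 3.13 FPKM on the first side and 7.39 to 27.5 FPKM on the second, with the milk protein gene Wap listed at 0 in all 12 libraries. Most of the latter sum was Ltf, which neutrophils also make (mean 14.8 FPKM with IL-10 and 0.443 without). Elf5 was not higher (0.293 against 0.363 FPKM), and Csn2 was at most 0.2 FPKM. Higher means with IL-10 were those of Esr1 (2.77 against 1.43 FPKM), Prlr (0.933 against 0.0183 FPKM) and Pgr (0.227 against 0.005 FPKM). On the first side, Ctrl-IgG replicate 3 and aCSF1R replicates 1 and 2 carried stratified keratinocyte RNA (11 markers, 839 to 1775 FPKM in sum, against 4.61 to 6.06 FPKM in the other 3 libraries of that side) and skeletal muscle RNA (8 markers, 645 to 1094 against 35.6 to 91.8 FPKM). Mitochondrial genes took 6.57% to 9.04% of the FPKM sum in 4 libraries (BF10 replicate 1, both IL-10-Fc replicate 1 and replicate 2, and Ctrl-IgG replicate 2) and 2.99% to 3.61% in the other 8. All 4 carry a first number of 4 or less in the code that ends their title, and the other 3 libraries with IL-10 carry 6 or 7, so that within this side the code and the mitochondrial share cannot be told apart. The labels do not say what the code stands for.

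Wnt7b showed the largest difference among the ligands. It was 0.06, 0.05 and 1.09 FPKM in Ctrl-IgG replicates 1 to 3 and 1.11, 1.30 and 0.13 FPKM in aCSF1R. It was 95.2, 61.1 and 88.6 FPKM in the IL-10-Fc group and 117.8, 88.5 and 77.7 FPKM in BF10. No library of the IL-10-Fc and BF10 groups came near the others, and the mean over the 6 libraries with IL-10 was 141-fold higher than over the 6 without. Wnt7b (ENSMUSG00000022382, GRCm38 chromosome 15, 85535437 to 85582473, minus strand) acts through beta-catenin and is made by several epithelia. In limma on log2(FPKM + 1), the IL-10 contrast, which is the mean of the IL-10-Fc and BF10 groups minus the mean of the Ctrl-IgG and aCSF1R groups, was 5.84 (SE 0.26, adjusted p = 1.1e-07). It was 5.94 for IL-10-Fc against Ctrl-IgG, 6.15 for BF10 against Ctrl-IgG and 5.74 for BF10 against aCSF1R, and each passed the test. In order, the group means were 94.7 ± 20.8 FPKM in BF10, 81.6 ± 18.1 in IL-10-Fc, 0.847 ± 0.628 in aCSF1R and 0.40 ± 0.598 in Ctrl-IgG (SD, n = 3 each). BF10 did not pass the test against IL-10-Fc (log2 difference 0.22, 95% interval -0.58 to 1.01), nor did aCSF1R against Ctrl-IgG (0.41, -0.39 to 1.21).

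Wnt7a, the close paralog of Wnt7b, was listed at 0 in every library without IL-10. It was 1.91, 1.52 and 4.89 FPKM in the IL-10-Fc group and 2.11, 3.86 and 1.27 FPKM in BF10, so the sides did not overlap. No fold is given against values of 0. On the log2(FPKM + 1) scale the IL-10 contrast was 1.76 (SE 0.23, limma adjusted p = 0.00014), and Wnt7a was higher in IL-10-Fc than in Ctrl-IgG and in BF10 than in either Ctrl-IgG or aCSF1R. Only the libraries with IL-10 carried Wnt7a past the filter of at least 1 FPKM in at least 3 libraries, so a difference was built into its entry. BF10 against IL-10-Fc gave -0.11 (95% interval -0.84 to 0.62). Wnt7a is on chromosome 6, 91363981 to 91411363, minus strand (ENSMUSG00000030093). Per kilobase, Wnt7b remained far above its paralog in each of the 6 libraries that had both.

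**Figure D1:**
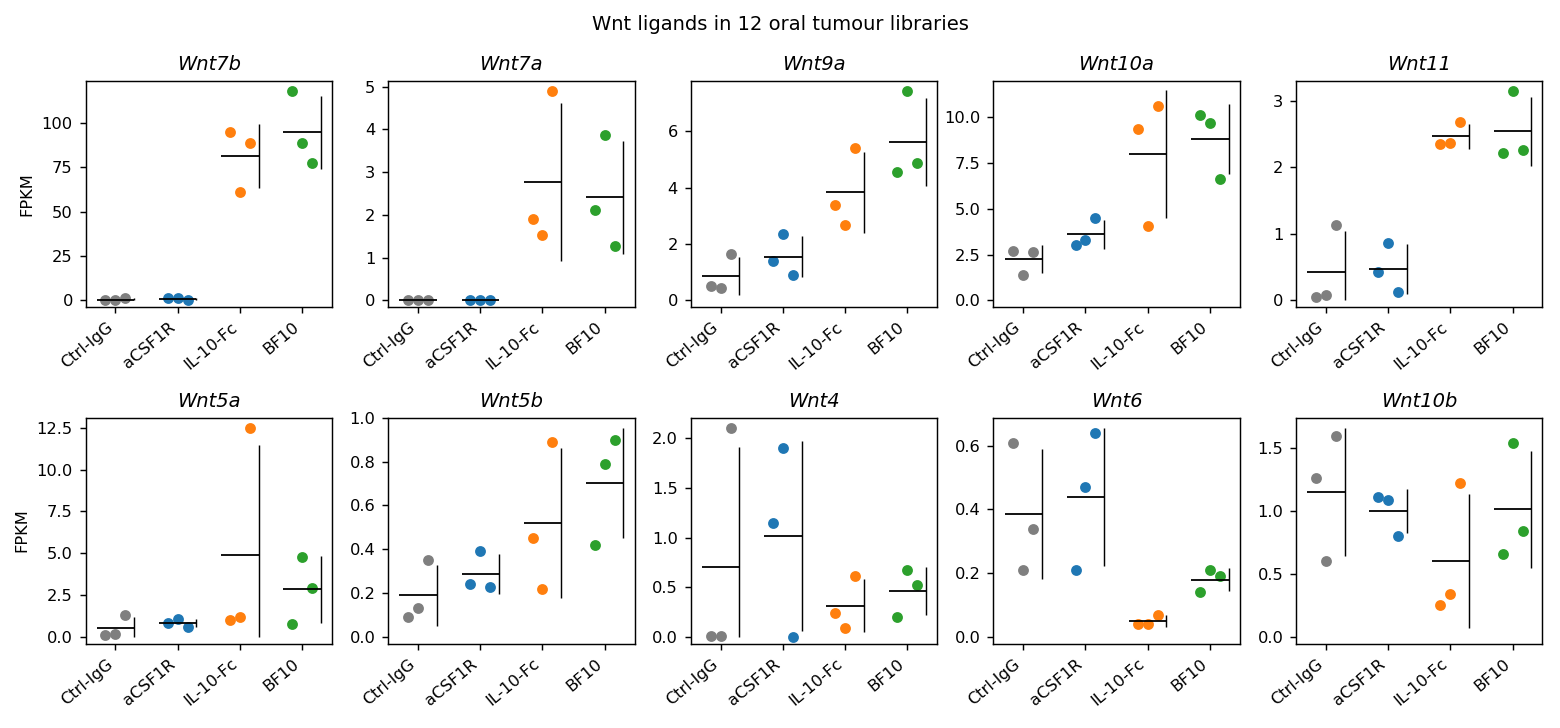
FPKM of the 10 Wnt ligands in the 4 treatment groups, 1 point per library in replicate order from left to right. Horizontal bars are group means and vertical bars the SD (n = 3), drawn no lower than 0. In IL-10-Fc and BF10, Wnt7b lies between 61.1 and 118 FPKM and Wnt7a between 1.27 and 4.89 FPKM, while the other groups lie at or below 1.3 and at 0.

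Wnt9a was higher in all 6 libraries with IL-10 than in any library without it. Its values were 0.52, 0.45 and 1.64 FPKM in Ctrl-IgG, 1.40, 2.35 and 0.91 in aCSF1R, 3.40, 2.67 and 5.42 in the IL-10-Fc group and 4.56, 7.43 and 4.88 in BF10. The lowest IL-10-Fc value lay just above the highest aCSF1R value. The mean with IL-10 was 3.90-fold the mean without, and the IL-10 contrast was 1.39 (SE 0.23, limma adjusted p = 0.000665). Wnt9a (ENSMUSG00000000126, chromosome 11, 59306928 to 59333552, plus strand) is known for its part in joint formation. Group means ran from BF10 (5.62 ± 1.57 FPKM) over IL-10-Fc (3.83 ± 1.42) and aCSF1R (1.55 ± 0.732) to Ctrl-IgG (0.87 ± 0.668), and neither BF10 against IL-10-Fc (0.47, 95% interval -0.26 to 1.20) nor aCSF1R against Ctrl-IgG (0.47, -0.26 to 1.19) passed the test. For BF10 against aCSF1R the log2 change was 1.39 (adjusted p = 0.0107), and without BF10 replicate 2 it was 1.20 with an adjusted p of 0.0503.

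Wnt10a, which signals through beta-catenin in teeth, skin and hair, was the most abundant ligand without IL-10. Its values were 2.72, 1.39 and 2.64 FPKM in Ctrl-IgG, 3.04, 3.29 and 4.50 in aCSF1R, 9.37, 4.05 and 10.6 in the IL-10-Fc group and 10.1, 9.71 and 6.63 in BF10. Here the sides touched, since IL-10-Fc replicate 2 was below aCSF1R replicate 3. The ratio of means was 2.87, and the IL-10 contrast was 1.25 (SE 0.24, limma adjusted p = 0.00157). Against Ctrl-IgG the log2 change was 1.41 in the IL-10-Fc group and 1.60 in BF10, both past the test, and against aCSF1R it was 1.08 in BF10 (adjusted p = 0.0379). That last call was lost without BF10 replicates 1 or 2, aCSF1R replicates 1, 2 or 3 or Ctrl-IgG replicate 1, with adjusted p of 0.101, 0.113, 0.127, 0.111, 0.0576 and 0.0513 in that order. It was also lost as TPM (adjusted p = 0.107) and in the fit of genes above 0 (0.0577). When Ctrl-IgG replicate 3 and aCSF1R replicates 1 and 2 were left out together, the IL-10 contrast was 1.16 and its call was lost. That fit kept only replicate 3 of aCSF1R.

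Wnt10b, the paralog of Wnt10a, had values that overlapped between the groups, at 0.60 to 1.60 FPKM over the 6 libraries without IL-10 (median 1.10) and 0.25 to 1.54 FPKM over the 6 with IL-10 (median 0.75). The IL-10 contrast was -0.23 (SE 0.19, limma adjusted p = 0.348). Within the IL-10 side the libraries with a high mitochondrial share had the lowest values, 0.25, 0.34 and 0.66 FPKM, against 0.84, 1.22 and 1.54 FPKM in the others. The part of the mitochondrial share in this was not tested.

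Wnt6, made by many embryonic epithelia, did not pass the filter. It was 0.61, 0.21 and 0.34 FPKM in Ctrl-IgG, 0.21, 0.47 and 0.64 in aCSF1R, 0.04, 0.04 and 0.07 in the IL-10-Fc group and 0.14, 0.21 and 0.19 in BF10. All 3 IL-10-Fc values lay below every value of the IL-10-free groups, and BF10 replicate 2 equalled the lowest of them. In a fit of all 29980 genes above 0 in at least 3 libraries, the IL-10 contrast was -0.33 (SE 0.08, limma adjusted p = 0.0115), short of the 1.5-fold change required on a scale that compresses such low values, whereas the mean FPKM was 3.59-fold higher without IL-10. Wnt6 lies 6.2 kb upstream of Wnt10a on chromosome 1 (74771892 to 74785322, with Wnt10a at 74791516 to 74804179, both on the plus strand and with no protein-coding gene between them), and Wnt10a was the higher and Wnt6 the lower of this pair with IL-10.

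Wnt11, a ligand of the planar polarity branch, was 0.05, 0.08 and 1.13 FPKM in Ctrl-IgG and 0.43, 0.86 and 0.12 FPKM in aCSF1R. It was 2.35, 2.37 and 2.68 FPKM in the IL-10-Fc group and 2.22, 3.14 and 2.26 FPKM in BF10. The sides did not overlap, and the libraries with IL-10 were close together. The ratio of means was 5.63, and the IL-10 contrast was 1.33 (SE 0.21, limma adjusted p = 0.00039). Only 1 library without IL-10 reached 1 FPKM, so Wnt11 too passed the filter mainly through the side where it was high. BF10 and IL-10-Fc differed by 0.02 (95% interval -0.62 to 0.66). Wnt11 is on chromosome 7, 98835112 to 98855195, plus strand (ENSMUSG00000015957).

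Promoters were taken for the ligands that were higher with IL-10 and that have an entry in the RefSeq table of promoters (GRCm38.p6), each running from 250 bases before to 50 after the start of the gene. Of the 10 ligands 7 were matched, and the 3 shown are those of Wnt7a, Wnt9a and Wnt11, since these genes differed together across the sides. Capitals mark the GC box, searched as GGGCGG or, for the other strand, CCGCCC, overlapping matches included.
Wnt7a, chr6:91411304-91411603, minus strand: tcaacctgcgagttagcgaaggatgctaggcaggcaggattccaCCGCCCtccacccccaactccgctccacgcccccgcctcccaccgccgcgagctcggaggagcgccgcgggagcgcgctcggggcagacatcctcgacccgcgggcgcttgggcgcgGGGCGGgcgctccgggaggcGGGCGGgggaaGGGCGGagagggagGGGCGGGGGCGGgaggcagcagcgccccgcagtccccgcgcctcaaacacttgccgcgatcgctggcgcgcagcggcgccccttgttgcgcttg
Wnt9a, chr11:59306680-59306979, plus strand: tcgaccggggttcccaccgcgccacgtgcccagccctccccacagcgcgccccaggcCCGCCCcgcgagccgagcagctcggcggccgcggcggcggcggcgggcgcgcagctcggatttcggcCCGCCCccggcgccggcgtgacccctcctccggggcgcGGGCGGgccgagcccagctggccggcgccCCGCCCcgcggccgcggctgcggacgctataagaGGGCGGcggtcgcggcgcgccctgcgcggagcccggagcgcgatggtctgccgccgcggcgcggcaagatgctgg
Wnt11, first of its entries, chr7:98834862-98835161, plus strand: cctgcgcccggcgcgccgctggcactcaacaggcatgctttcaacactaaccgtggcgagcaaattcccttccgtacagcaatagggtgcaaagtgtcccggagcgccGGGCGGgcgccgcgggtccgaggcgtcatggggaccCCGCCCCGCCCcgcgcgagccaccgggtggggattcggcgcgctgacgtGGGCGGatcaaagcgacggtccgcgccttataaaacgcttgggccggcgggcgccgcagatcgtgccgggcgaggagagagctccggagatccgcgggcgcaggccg
The Wnt7a promoter held 6 GC boxes, that of Wnt9a 5 and the Wnt11 entry shown 4. At least 1 was present in 35.7% of all 32851 promoters and at least 5 in 2.71%. The GC content was 76%, 83.3% and 71.3%, against a median of 52.7%. The second Wnt11 entry, not shown, held 1 GC box and had a GC content of 59.3%. Such letters were not limited to these ligands, because the promoter of Wnt4, which was not called, held 8 GC boxes and that of Wnt6 held 6, while that of Wnt10b held 0. The TCF/LEF core, searched as CTTTGA or TCAAAG, was found 1 time in the Wnt11 entry shown and in 16% of all promoters. It was found 0 times in the second Wnt11 entry and in the promoters of Wnt7a and Wnt9a. A match is a description of the letters and not a site.

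Wnt5a and Wnt5b, the paralogs that act mostly without beta-catenin, were more scattered. Wnt5a was 0.12, 0.15 and 1.32 FPKM in Ctrl-IgG, 0.82, 1.05 and 0.57 in aCSF1R, 1.03, 1.20 and 12.5 in the IL-10-Fc group and 0.80, 4.78 and 2.93 in BF10. IL-10-Fc replicate 3 was far above the rest. All libraries with IL-10 and a high mitochondrial share, at 0.80 to 1.20 FPKM, lay within the range of the IL-10-free libraries (0.12 to 1.32 FPKM). The IL-10 contrast was 1.19 (SE 0.48, limma adjusted p = 0.0601). It passed the test at 1.42 without BF10 replicate 1 (adjusted p = 0.0347), at 1.43 without IL-10-Fc replicate 1 (0.0381) and at 1.40 without IL-10-Fc replicate 2 (0.0447), and these are the 3 libraries with IL-10 and a high mitochondrial share. Leaving out all 4 libraries of high mitochondrial share, an alternative added after seeing the data, gave 2.23. IL-10-Fc was then represented by its high replicate 3 alone, so this value is a description and no p-value is given. A term for title codes over 4 gave 0.99 (limma adjusted p = 0.0307). Wnt5b did not pass the filter. It was 0.09 to 0.39 FPKM without IL-10 and 0.22 to 0.90 FPKM with IL-10, and in the fit of genes above 0 its IL-10 contrast was 0.37 (SE 0.12, adjusted p = 0.0367), short of 1.5-fold. The 3 libraries with IL-10 and a low mitochondrial share held its highest values, 0.79, 0.89 and 0.90 FPKM. Wnt5a is on chromosome 14 (28504750 to 28527448) and Wnt5b on chromosome 6 (119432531 to 119544347).

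Wnt4, which keratinocytes of skin and mouth make, was highest in the 3 libraries that carried keratinocyte RNA. It was 0.01, 0.01 and 2.10 FPKM in Ctrl-IgG, 1.15, 1.90 and 0 in aCSF1R, 0.24, 0.09 and 0.61 in the IL-10-Fc group and 0.20, 0.67 and 0.52 in BF10. The highest values were thus those of Ctrl-IgG replicate 3 and aCSF1R replicates 1 and 2, and the other 3 libraries without IL-10 were at or near 0. The IL-10 contrast was -0.26 (SE 0.33, limma adjusted p = 0.531). It turned to 0.01 without Ctrl-IgG replicate 3. Without all 3 of the libraries with keratinocyte RNA it was 0.45, in a fit that kept only replicate 3 of aCSF1R. Across the 12 libraries Pearson's r of Wnt4 with the mean log2 level of the 11 keratinocyte markers was 0.94, a description in which all points share the same libraries and 3 of them stand apart. The gene most like Wnt4 over the 12 libraries was Dsp (r = 0.985), the desmosome protein of epithelia, followed by Tgm1 (r = 0.974), the transglutaminase of cornifying keratinocytes. Wnt4 is on chromosome 4, 137277489 to 137299726 (ENSMUSG00000036856).

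These 3 libraries also carried skeletal muscle RNA, and the part of either tissue in the levels below was not tested. The other ligands of the 10 that were higher in them than in the other 3 of their side were Wnt7b, Wnt11, Wnt9a, Wnt5a and Wnt5b. Wnt7b was 1.09, 1.11 and 1.30 FPKM in the libraries with keratinocyte RNA and 0.05, 0.06 and 0.13 FPKM in the others. Wnt11 was 0.43 to 1.13 against 0.05 to 0.12 FPKM, and Wnt9a 1.40 to 2.35 against 0.45 to 0.91 FPKM. Wnt5a was 0.82 to 1.32 against 0.12 to 0.57 FPKM, and Wnt5b 0.24 to 0.39 against 0.09 to 0.23 FPKM. Wnt10a overlapped, at 2.64 to 3.29 against 1.39 to 4.50 FPKM. Wnt3 and Wnt3a, ligands of the beta-catenin branch that are not among the 10, were listed at 0 in the other 3 libraries and reached 0.14 and 0.05 FPKM in those with keratinocyte RNA. The libraries were grouped after their values were seen, so no test is given. With these 3 libraries left out, the IL-10 contrast was 6.32 for Wnt7b, 1.76 for Wnt7a, 1.72 for Wnt9a and 1.68 for Wnt11. The filter had been applied to all 12 libraries and was not repeated for this fit. No remaining library without IL-10 reached 1 FPKM for any of these 4 genes, so the values are a description.

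**Figure D2:**
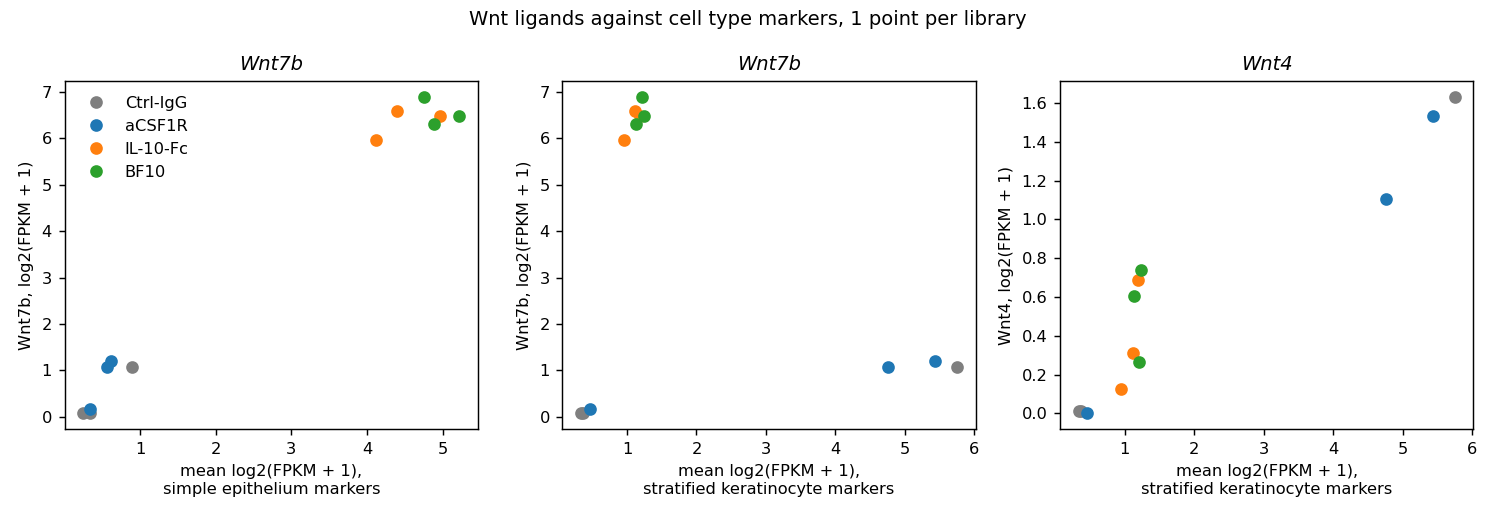
Level of Wnt7b (left and middle) and Wnt4 (right) as log2(FPKM + 1) against the mean log2(FPKM + 1) of 9 simple epithelium markers (left) or 11 stratified keratinocyte markers (middle and right), 1 point per library and a colour for each of the 4 groups. Wnt7b is high in the 6 libraries with high simple epithelium markers (r = 0.99 over 12 libraries that fall into separate sides), and Wnt4 is highest in the 3 libraries with the highest keratinocyte markers (r = 0.94).

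Of the 10 ligands, 8 passed the filter and were tested, and 5 of them (Wnt7a, Wnt7b, Wnt9a, Wnt10a and Wnt11) were called higher in the IL-10 contrast and 0 lower, where a call needs a limma adjusted p below 0.05 together with 1.5-fold or more. Across all 15813 tested genes, 43.2% were called in this contrast, 14.6% higher and 28.6% lower. The 6 libraries with IL-10 all lay above the 6 without for 4 ligands (Wnt7a, Wnt7b, Wnt9a and Wnt11) and for 9.73% of all tested genes. The median change of the 8 tested ligands was 1.29, against -0.30 for all tested genes. Of all called genes 33.8% were higher. Median-of-ratios size factors moved the median of all genes from -0.30 to -0.02 and that share to 49.3%, and the IL-10 contrast then became 6.07 for Wnt7b, 1.86 for Wnt7a, 1.61 for Wnt9a, 1.53 for Wnt10a and 1.51 for Wnt11. The same 5 ligands were called for IL-10-Fc against Ctrl-IgG (33.7% of all tested genes called in either direction), for BF10 against Ctrl-IgG (24.9%) and for BF10 against aCSF1R (25.0%). These comparisons share control or BF10 libraries and all cross the sides that differ in H2-Ea and Xist. Wnt7a and Wnt11 passed the filter through the side where they were high, so the count of 5 gives no support of its own.

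Comparisons within a side, where H2-Ea and Xist were alike in presence, called no ligand. For aCSF1R against Ctrl-IgG limma called 0 of the 8 tested ligands and 0 of them had an unadjusted p under 0.05, while 0% of all tested genes were called and 437 had an unadjusted p under 0.05. The changes ran from -0.08 for Wnt10b to 0.52 for Wnt10a (95% interval -0.23 to 1.27). For BF10 against IL-10-Fc limma called 0 of the 8, again with 0 at an unadjusted p under 0.05, and 0.0126% of all tested genes, while 828 of all tested genes had an unadjusted p under 0.05. Here the changes ran from -0.19 for Wnt5a (-1.67 to 1.30) to 0.47 for Wnt9a (-0.26 to 1.20), beside a median of 0.34 for all tested genes. With size factors they ran from -0.47 for Wnt5a to 0.22 for Wnt10b. Wnt7b then turned from 0.22 to -0.23, so the order of its BF10 and IL-10-Fc means depends on the scaling. The comparison of BF10 with the sum of its components, which asks whether the fusion departs from adding IL-10-Fc and aCSF1R, also gave 0 called and 0 at an unadjusted p under 0.05, against 0.00632% of all tested genes (412 at an unadjusted p under 0.05), with values from -0.51 for Wnt5a (-2.61 to 1.59) to 0.44 for Wnt10b (-0.42 to 1.29). For aCSF1R against Ctrl-IgG and for BF10 against IL-10-Fc the interval of each of the 8 ligands reached past 1.5-fold in at least 1 direction. With 3 libraries per group a difference of that size thus stays within the error. These intervals pool the spread of all 4 groups. That of Wnt7a for aCSF1R against Ctrl-IgG, both listed at 0 throughout, therefore does not measure the spread of the groups compared. In bulk tumour RNA, fewer cells of a type and less RNA per cell cannot be told apart.

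**Figure D3:**
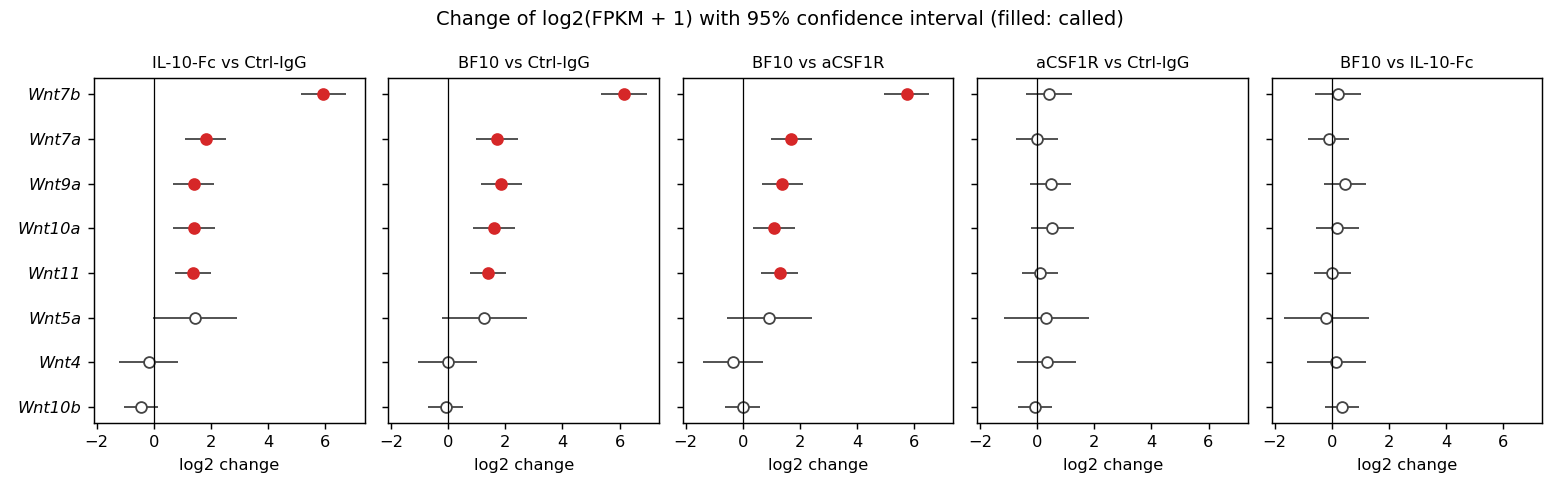
Change of log2(FPKM + 1) of the 8 tested ligands in 5 comparisons, with 95% confidence intervals from limma and filled points for called changes. Wnt7b lies at 5.94, 6.15 and 5.74 in the comparisons that cross the sides, and every interval includes 0 for aCSF1R against Ctrl-IgG and BF10 against IL-10-Fc.

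Wnt7b made up most of the summed Wnt level in the libraries with IL-10. The summed FPKM of the 19 Wnt genes was 3.29 to 13.5 without IL-10 and 74.7 to 141 with it. Wnt10a was the highest Wnt gene in all 6 libraries of the first side, with 20.2% to 53.2% of the sum, and Wnt7b in all 6 of the second, with 67.9% to 83.6%. Wnt7b held 1.05% to 10.9% on the first side. Among all genes of the table Wnt7b ranked between 945 and 1548 in the libraries with IL-10 and between 13933 and 21803 in those without. Wnt10a held 5.42% to 8.12% of the sum on the IL-10 side, although its level was higher there.

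**Figure D4:**
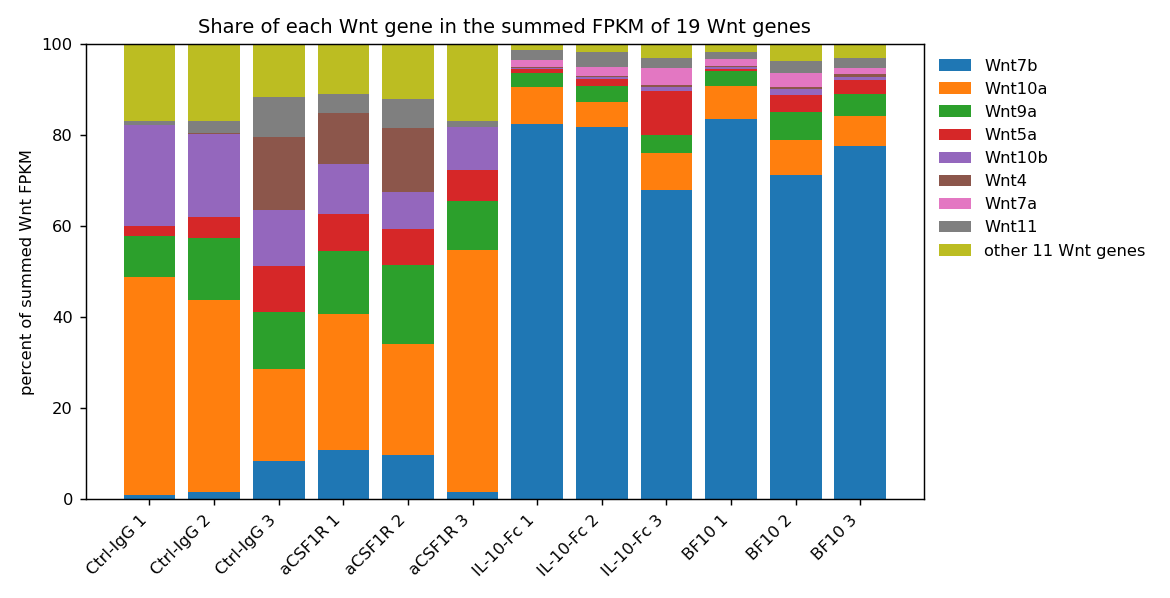
Share of each Wnt gene in the summed FPKM of the 19 Wnt genes, in percent, 1 bar per library. Wnt10a is the largest part of the Ctrl-IgG and aCSF1R bars and Wnt7b, at 67.9% to 83.6%, of the IL-10-Fc and BF10 bars.

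The other 9 Wnt genes were all low and none passed the filter. Wnt2 was listed at 0 in Ctrl-IgG replicates 1 and 2, was 0.05 to 0.16 FPKM in the other 4 libraries without IL-10 and 0.43 to 1.82 FPKM in those with IL-10. Wnt2b was 0.07 to 0.24 FPKM without and 0.29 to 2.04 FPKM with IL-10, so that the sides of both genes did not overlap. In the fit of genes above 0 their IL-10 contrasts were 0.81 for Wnt2 (SE 0.10, limma adjusted p = 0.000234) and 0.68 for Wnt2b (SE 0.19, 0.0215). Wnt2 and Wnt2b are known as ligands of mesenchymal cells. Wnt8a was at most 0.06 FPKM without and listed at 0 with IL-10, Wnt1 was at most 0.13 FPKM, Wnt16 at most 0.27 FPKM and Wnt9b at most 0.05 FPKM, and Wnt8b was listed at 0 in all 12 libraries.

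The other genes of the pathway were taken as 7 lists of 88 genes, of which 65 were tested, 19 were called higher and 9 lower in the IL-10 contrast, and 16 of these 28 calls held under every alternative. The share called was 43.1% (29.2% higher and 13.8% lower), beside the 43.2% of all tested genes (14.6% higher and 28.6% lower) against which the counts of each list below have to be read. Of the 28, 7 (Notum, Lgr6, Apc2, Tnfrsf19, Ror2, Fzd9 and Rspo3) had no library at 1 FPKM on the side where they were low. A difference was thus built into their entry, and their calls give no support of their own. Prickle1, Reck and Nkd2 had 1 library at 1 FPKM or more on their low side, and Fzd6, Sfrp4 and Lef1 had 2. The filter requires 3, so these too passed it through the side where they were high, and the same limit holds for their calls. Among the 5 secretion genes all 5 were tested, 1 was called higher and 2 lower. Notum, the extracellular enzyme that inactivates Wnt ligands, was 0 to 0.32 FPKM without IL-10 and 3.97 to 11.6 FPKM with IL-10 (log2 change 2.68, SE 0.22, limma adjusted p = 6.39e-06). Tmed5, a transport protein of the early secretory route, was 42.7 to 56.7 FPKM without and 15.6 to 26.5 FPKM with IL-10 (-1.28, adjusted p = 0.000124). Tmed2, another member of that family, changed by -0.63 (adjusted p = 0.00403), but it gave -0.28 with size factors (adjusted p = 0.148) and -0.54 without IL-10-Fc replicate 2 (adjusted p = 0.00693, short of 1.5-fold). Wls, the carrier on which secretion depends, was 69.85 to 121.83 FPKM in all 12 libraries (-0.13, adjusted p = 0.474), and Porcn gave 0.44 (adjusted p = 0.228).

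Among the 18 receptors and co-receptors 14 were tested, with 6 called higher and 1 lower. Fzd6, a Frizzled receptor of the planar polarity branch, was 0.10 to 2.11 FPKM without and 5.14 to 17.1 FPKM with IL-10 (2.63, SE 0.38, limma adjusted p = 0.00024). Fzd1 changed by 1.29 (adjusted p = 0.00563) and Ror2, a receptor of Wnt5a, by 0.95 (adjusted p = 0.00601). Fzd9 was 0.58 to 1.53 FPKM without and at most 0.30 FPKM with IL-10 (-0.96, adjusted p = 0.000332). Lrp5 and Lrp6, which bring ligands into the beta-catenin branch, were not called (0.55 and -0.08, adjusted p = 0.298 and 0.639). Reck, which with Adgra2 makes cells responsive to Wnt7a and Wnt7b, had a log2 change of 0.76 (adjusted p = 0.0318), a call lost in 9 of 21 alternatives, and Adgra2 had -0.33 (adjusted p = 0.481). Both were lower in the 3 libraries with IL-10 and a high mitochondrial share than in the other 3 of that side, at 0.56 to 0.98 against 2.31 to 2.63 FPKM for Reck and 1.04 to 2.63 against 7.05 to 8.10 FPKM for Adgra2.

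Of 17 secreted inhibitors 8 were tested, with 5 called higher and 0 lower. Sfrp2 was 0.08 to 2.99 FPKM without and 9.76 to 29.2 FPKM with IL-10 (3.09, SE 0.38, limma adjusted p = 8.62e-05). Sfrp1, a secreted Frizzled-like protein as is Sfrp2, was 0.10 to 4.19 and 5.13 to 23.8 FPKM (2.26, adjusted p = 0.00204). The others called were Sfrp4 (1.40), Dkk3 (1.32, lost in 7 of 21 alternatives) and Notum. Of 9 fibroblast markers 7 were called higher with IL-10, Pdgfrb was not called (0.36, adjusted p = 0.536) and Pdgfra was called lower (-0.83, adjusted p = 0.0156). Their summed level was 199 to 666 FPKM without and 1081 to 2494 FPKM with IL-10, and their part in the levels of Sfrp1, Sfrp2 and Sfrp4 was not tested. Dkk1 and Sost, both blockers of Lrp5 and Lrp6, were listed at 0 in all 12 libraries. In the R-spondin axis 4 of 9 genes were tested. Lgr6, a receptor of R-spondins, was 0.06 to 0.32 FPKM without and 5.47 to 14.2 FPKM with IL-10 (3.12, SE 0.14, limma adjusted p = 1.12e-07). Rspo3, an R-spondin that strengthens Wnt signals, was 0.64 to 1.85 against 0.11 to 0.41 FPKM (-0.66, adjusted p = 0.00219), a call lost with size factors and with quantile normalization.

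The cytoplasmic and nuclear list had 20 of 21 genes tested, with 3 called higher and 4 lower. Tcf7l1, a TCF factor that mostly represses, was 2.96 to 16.3 FPKM without and 0.57 to 4.09 FPKM with IL-10 (-2.09, SE 0.41, limma adjusted p = 0.00173). Ctnnb1, beta-catenin itself, was 175 to 220 FPKM without and 290 to 428 FPKM with IL-10 (0.86, adjusted p = 0.000364). Apc2 changed by 0.95 (adjusted p = 0.000417), from at most 0.08 FPKM to 0.41 to 1.60 FPKM. Lef1 had -0.95 (adjusted p = 0.0185), and the libraries with IL-10 split, with 0.13 to 0.28 FPKM in all 3 of IL-10-Fc and in BF10 replicate 1 and 3.11 and 2.30 FPKM in BF10 replicates 2 and 3. That call was lost when the 3 libraries with keratinocyte RNA were left out, which left aCSF1R with replicate 3 alone. Bcl9l had 0.98 (adjusted p = 0.0465), a call lost in 12 of 21 alternatives, and those of Gsk3b and Tle1 were lost in 17 of 21.

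Genes that beta-catenin is known to switch on did not move one way. Of 16 listed 12 were tested, 4 were called higher and 1 lower. Ccnd1, the cyclin of early cell cycle entry, was 39.7 to 105.5 FPKM without and 107.4 to 536 FPKM with IL-10 (1.87, SE 0.41, limma adjusted p = 0.00355). Tnfrsf19 was at most 0.57 FPKM without and 1.67 to 5.13 FPKM with IL-10 (1.60, adjusted p = 5.14e-05), and Notum, Nkd2 (1.09, lost in 6 of 21) and Lef1 are the other called genes of this list. Axin2, the most widely used readout of this branch, was 0.97, 0.16 and 1.30 FPKM in Ctrl-IgG, 0.90, 1.15 and 0.51 in aCSF1R, 0.45, 0.44 and 1.63 in the IL-10-Fc group and 0.48, 2.14 and 1.60 in BF10. It was not called (0.17, SE 0.26, adjusted p = 0.596). Its low values with IL-10 were those of the libraries with a high mitochondrial share (0.44 to 0.48 FPKM, against 1.60 to 2.14 FPKM in the other 3), which are also those with low title codes, and Nkd1, Nkd2 and Apcdd1 divided the same libraries, at 0.32 to 0.45 against 1.34 to 2.19, 0.66 to 1.10 against 3.44 to 4.35 and 1.53 to 4.44 against 14.45 to 19.33 FPKM. Wnt7b did not divide them, at 61.1 to 118 against 77.7 to 88.6 FPKM. In the planar polarity list 9 of 12 genes were tested. Prickle1 changed by 1.47 (adjusted p = 0.00376) and Scrib by -1.14 (adjusted p = 0.0325), the latter a call lost in 9 of 21 alternatives.

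**Figure D5:**
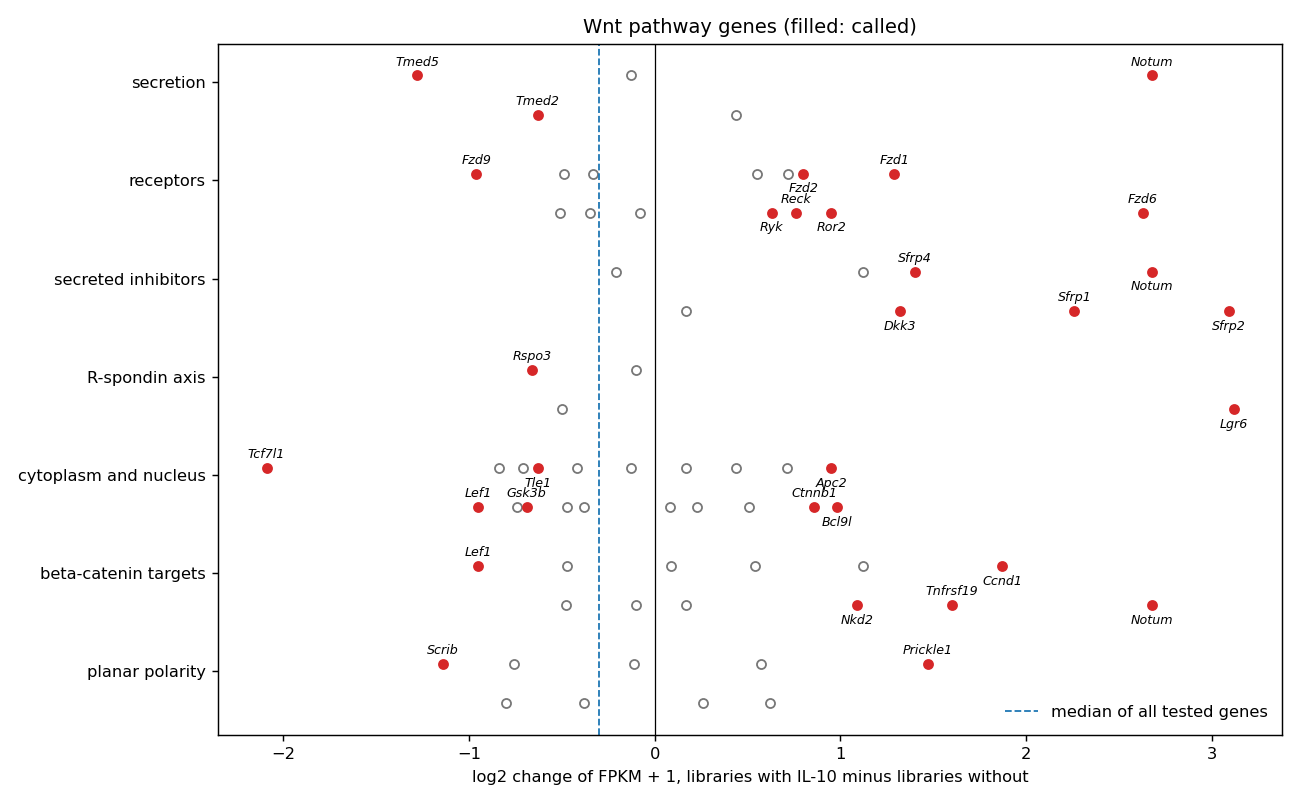
Change of log2(FPKM + 1) in the IL-10 contrast for the tested genes of the 7 pathway lists, 1 point per gene and list, with called genes filled and named and the median of all tested genes (-0.30) as a dashed line. Notum, Sfrp2, Lgr6 and Fzd6 lie furthest to the right, between 2.63 and 3.12, and Tcf7l1 furthest to the left at -2.09.

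Genes most like each ligand over the 12 libraries, by Pearson's r of log2(FPKM + 1), are given as a description, since the libraries fall into 2 sides and many genes share that split. For Wnt7b they were Kcnk1, a potassium channel, and Krtcap3 (r = 0.996 each), with 681 genes at r of 0.9 or more. For Wnt11 they were Cldn4, a tight junction protein of epithelia (0.989), and Moxd1 (0.987), and for Wnt7a Zfp229 (0.987) and Hoxb2 (0.973). Wnt9a was closest to Pmepa1 (0.985) and Serpine2 (0.982), Wnt10a to Mettl9 (0.980) and Rtkn (0.964), Wnt5a to Tgfb2 (0.972) and Cacna1c (0.969), and Wnt10b to Ccsap and Ubtd2 (0.938 each). Among the ligands themselves, r was 0.95 for Wnt7b with Wnt11, 0.95 for Wnt9a with Wnt11, 0.93 for Wnt7a with Wnt7b and 0.89 for Wnt5a with Wnt5b. Wnt6 ran the other way, with r of -0.78 with Wnt7b and -0.48 with its neighbour Wnt10a. The other neighbours showed r of -0.04 for Wnt10b with Wnt1, which lie 11.7 kb apart on chromosome 15, and -0.23 for Wnt9a with Wnt3a, which lie 16.2 kb apart on chromosome 11.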

How the data were processed

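Poly(A) RNA of 12 tumour libraries (TruSeq stranded mRNA, NextSeq) was measured in 4 groups of 3, taken from the labels. The authors deposited FPKM values per gene (55401 genes, mm10). The submitters' processing notes name STAR 2.7.5a, RSEM 1.3.3 and DESeq2 1.30.0. Deposited tables of the authors' own comparisons (fold changes and p-values) were not used. The study's methods state only a range of reads per sample and not the depth of each library, so no interval for counting error is given. FPKM sums per library were 637596 to 976950.

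The 15813 genes that reached 1 FPKM in 3 or more libraries were tested on log2(FPKM + 1) with limma 3.58.1 in R 4.3.3 (all 12 libraries in 1 fit, eBayes with trend, Benjamini-Hochberg adjustment over all tested genes). The scale understates changes of low genes. Called means an adjusted p under 0.05 and at least 1.5-fold. The fit was tested on simulated data. Positions come from GENCODE M21 and promoters from RefSeq (GRCm38.p6). Named genes were the 10 ligands, the listed pathway and marker genes, and the 2 genes most correlated with each tested ligand. Members and lists were chosen with earlier results of these data known. Replicate numbers follow the order of the samples and serve as names only. Alternatives were another pseudocount, filter, scaling, covariates, the groups compared alone and leaving out libraries.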

Additional observations from a re-analysis of the deposited data

Results flagged for a closer look

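Wnt5a was 12.5 FPKM in IL-10-Fc replicate 3, far from the other 5 libraries with IL-10, which ran from 0.80 to 4.78 FPKM. On the FPKM scale the gap to the nearest library was 0.659 of the range of the 6, above Dixon's 95% critical value for 6 samples. That value holds for normally distributed samples of a single kind. The 6 come from both IL-10-Fc and BF10, and the log2 scale of the other tests was not tried. Under that condition chance alone passes the value in about 1 in 20 groups, and 19 groups were examined.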

How the results depend on the processing

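No paired analysis was possible because the replicate numbers follow the order of the samples and serve as names only. Over 498 values of the tested ligands under the alternatives, 471 kept their direction and their side of the threshold. Without the 3 libraries with keratinocyte and muscle RNA, an alternative added after seeing the data, aCSF1R was left with replicate 3 alone. The count of ligands called is therefore not given for that fit. Its log2 change for BF10 against aCSF1R was 6.38 for Wnt7b, 1.70 for Wnt7a, 1.77 for Wnt9a, 1.65 for Wnt11 and 0.82 for Wnt10a. With all libraries it was 5.74, 1.70, 1.39, 1.29 and 1.08 in that order. Leaving out 1 library at a time gave 3 to 5 ligands called for this comparison, against 5 with all libraries and 3 without BF10 replicate 2. Wnt4 in the IL-10 contrast turned from -0.26 to 0.01 without Ctrl-IgG replicate 3 and to 0.45 without those 3 libraries, and the cause was not tested. Over all libraries left out 1 at a time it ran from -0.48 to 0.01. Wnt5a in the IL-10 contrast passed the test in 9 of 21 alternatives, among them size factors (1.34, limma adjusted p = 0.0179) and a term for title codes (0.99, 0.0307). Wnt10a for IL-10-Fc against Ctrl-IgG had an adjusted p of 0.0613 when only the compared groups were fitted. Without the 4 libraries of high mitochondrial share, also added after seeing the data, Wnt11 for IL-10-Fc against Ctrl-IgG gave 1.30 (SE 0.48). With all libraries it gave 1.37 (SE 0.29). In the former fit, which is also among the 9 for Wnt5a, IL-10-Fc was represented by replicate 3 alone. The Wnt11 call was lost there, and the part of the mitochondrial share in this was not tested. The median change of all genes in the IL-10 contrast was -0.0784 after quantile normalization and -0.431 as TPM, and 46.8% and 30.7% of called genes were then higher.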
